A study of Mus musculus with 4 samples.

Results

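The 6 Cyp4a genes measured in mouse liver here, Cyp4a10, Cyp4a14, Cyp4a31, Cyp4a32, Cyp4a12a and Cyp4a12b, encode cytochrome P450 enzymes that hydroxylate fatty acids at the end of the chain, the omega carbon. They are 6 of the 27179 genes in the deposited count files. They were matched by symbol to their Entrez identifiers, and the family was selected on its counts in fasted against non-fasted libraries, which were already known, so its values in that comparison are given as a description without a test. The samples were bulk liver RNA labelled as from male wild-type C57BL/6 mice, with 2 libraries from mice that went without food overnight but had water (fasted) and 2 from mice that kept food and water at all times (non-fasted). The groups follow the sample titles, since a separate treatment label reads fasted for all 4 libraries. The mice were matched for age, with no age stated, and the labels name no engineered allele and no drug. The series belongs to a study of acetaminophen injury of the liver in which the feeding state was one of the variables.

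In the liver, omega-hydroxylation opens a side route of fatty acid breakdown. A Cyp4a enzyme adds a hydroxyl group, alcohol and aldehyde dehydrogenases turn it into a second carboxyl group, and the resulting dicarboxylic acid is shortened in peroxisomes. Cyp4a10 and Cyp4a14 are textbook target genes of PPARα (Ppara), the nuclear receptor for fatty acids that is active in fasting, whereas Cyp4a12a is known as a gene expressed mainly in males and as a source of the arachidonic acid product 20-HETE.

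The libraries of the groups differed in more than feeding state. Totals were 13541405 and 13528015 counts for fasted and 36975921 and 36943535 counts for non-fasted livers. The 14 hepatocyte markers, albumin among them, took 13.8% of the counts in both fasted libraries and 5.56% and 5.53% in the non-fasted libraries. The 16 trophoblast markers, genes of the placenta, summed to 6 and 5 counts in the fasted libraries, where 11 of them were at 0, against 2316049 and 2333686 in the non-fasted libraries, which is 6.26% and 6.32% of their counts. Xist, the RNA of the inactive X chromosome, had 2 and 1 counts against 25772 and 26316 although all samples are labelled male, while the Y-linked Ddx3y, Eif2s3y, Kdm5d and Uty were counted in every library. Markers of kidney, the other organ in which Cyp4a genes are abundant, were near 0, all 9 summing to 9 and 14 counts in the fasted libraries, against 152 and 158 in the others. Trophoblast RNA and Xist go against the label of male liver, so it is in doubt whether the non-fasted libraries hold what their labels say, and every fold change below compares the libraries as labelled. An effect of feeding cannot be told apart from these differences. Each fold change below is therefore given after median-of-ratios scaling over all tested genes and again with the hepatocyte markers set equal between groups. The second scaling lowers the log2 fold changes of the genes listed here by a median of 1.89. Under it the 14 markers themselves ran from -0.28 for Fgb to 0.38 for Apoa2. Log2 values in that range give no clear direction under this scaling.

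The members fall into close copies, which decides how far their counts can be read one by one. Coding sequences of Cyp4a10 and Cyp4a32 were identical at 97.2% of 1530 aligned bases, those of Cyp4a10 and Cyp4a31 at 96.6% and those of Cyp4a31 and Cyp4a32 at 96.0%. Cyp4a12a and Cyp4a12b were identical at 98.5% of 1527 bases, with 23 differences and 1 stretch of 342 bases without any. Cyp4a14 stood alone, at 75.0 to 76.0% identity with every other member. In the annotated gene order on chromosome 4 the members follow each other as Cyp4a12a, Cyp4a12b, Cyp4a14, Cyp4a10, Cyp4a31 and Cyp4a32, and Cyp4a14 is the only member transcribed in the opposite direction. The following 60 coding bases of exon 6 are shown because, among stretches of this length without gaps, they separate the close copies best. They are bases 669 to 728 of the coding sequence in Cyp4a10, Cyp4a31 and Cyp4a32, 663 to 722 in Cyp4a14 and 666 to 725 in Cyp4a12a and Cyp4a12b, read from GENCODE M21 transcripts of GRCm38, and capitals mark bases that differ from Cyp4a10.
Cyp4a10: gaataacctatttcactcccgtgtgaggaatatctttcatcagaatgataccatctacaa
Cyp4a31: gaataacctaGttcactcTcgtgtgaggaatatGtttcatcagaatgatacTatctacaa
Cyp4a32: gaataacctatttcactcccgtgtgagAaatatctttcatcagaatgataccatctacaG
Cyp4a14: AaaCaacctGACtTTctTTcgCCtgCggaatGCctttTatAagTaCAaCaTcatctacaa
Cyp4a12a: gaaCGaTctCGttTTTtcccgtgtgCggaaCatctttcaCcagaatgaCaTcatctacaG
Cyp4a12b: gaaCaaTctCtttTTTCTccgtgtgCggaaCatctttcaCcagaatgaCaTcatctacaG
In this stretch Cyp4a32 differs from Cyp4a10 at 2 bases, Cyp4a31 at 4, Cyp4a12a and Cyp4a12b at 14 each, and Cyp4a14 at 21. Cyp4a12a and Cyp4a12b differ from each other at 4 of the 60 bases, so a read from even this part of the transcript rests its assignment within either copy group on a few letters.

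Over the whole transcripts, 30.5% of the 50-base windows of Cyp4a10, 20.1% of those of Cyp4a31 and 46.8% of those of Cyp4a32 were also present, letter for letter, in another Cyp4a gene. For Cyp4a12a and Cyp4a12b the shares were 48.9% and 49.4%, all of it with each other among the members, and for Cyp4a14 0.245%, shared with the pseudogene Cyp4a30-ps. At 100 bases they were 12.7%, 8.22%, 20.1%, 35.8%, 36.2% and 0% for Cyp4a10, Cyp4a31, Cyp4a32, Cyp4a12a, Cyp4a12b and Cyp4a14. How reads with several matching places were counted is not given, so the split of counts within Cyp4a10, Cyp4a31 and Cyp4a32, and between Cyp4a12a and Cyp4a12b, is uncertain, whereas the count of Cyp4a14 is nearly free of it as far as the Cyp4a genes go.

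**Figure D1:**
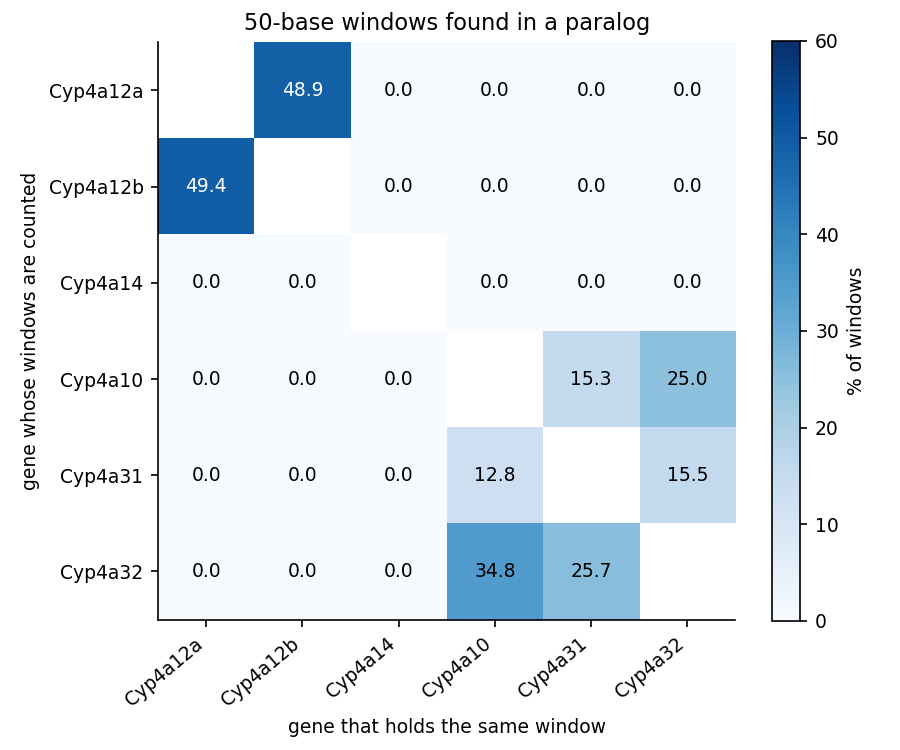
Percentage of the 50-base windows of each gene (vertical axis) that is found unchanged in a transcript of another member (horizontal axis). Shared windows occur within the pair Cyp4a12a and Cyp4a12b, at 48.9% and 49.4%, and among Cyp4a10, Cyp4a31 and Cyp4a32, whereas Cyp4a14 shares none with the other members.

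Cyp4a14, a PPARα-inducible fatty acid hydroxylase and the member least open to shared reads, had 8416 and 8561 counts in the fasted libraries, but 160 and 145 counts in the non-fasted ones although these were deeper. Its normalized count was 16707 ± 247 in the fasted and 77.5 ± 5.35 in the non-fasted libraries (SD, n = 2 each), and the groups were far apart. That is a ratio of 216-fold and a log2 fold change of 7.75 (SE 0.072), the highest among the 15470 genes tested. With hepatocyte markers set equal the log2 fold change was 5.87. In bulk RNA such as this, fewer cells of a type and less RNA per cell cannot be told apart.

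Cyp4a10, the other classical PPARα-responsive member, had the most counts of the family in the fasted libraries. It had 9706 and 9955 counts there against 724 and 677 in the non-fasted ones, or 19349 ± 398 against 356 ± 16.7 normalized counts. Both fasted libraries were above both non-fasted libraries, and the log2 fold change was 5.76 (SE 0.052), or 3.88 with hepatocyte markers set equal.

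Cyp4a31 and Cyp4a32, the copies closest to Cyp4a10, were higher in the fasted libraries too but at lower levels. Cyp4a31 had 283 and 265 counts in the fasted libraries against only 16 and 11 in those labelled non-fasted. Its log2 fold change of 6.28 has the widest error of the family (SE 0.273, and a 95% counting interval of 5.74 to 6.91 that covers counting error only), and was 4.40 with hepatocyte markers set equal. Cyp4a32 had 1068 and 1184 counts against 178 and 193, a log2 fold change of 4.55 (SE 0.097) that became 2.67 with hepatocyte markers set equal.

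Cyp4a12a and Cyp4a12b had the smallest fold changes of the family. Cyp4a12a, the male-predominant member, had 3832 and 3724 counts in the fasted libraries against 4270 and 4211 counts in those labelled non-fasted, and Cyp4a12b had 1746 and 1755 against 1316 and 1284. After median-of-ratios scaling Cyp4a12a stood at 7436 ± 130 against 2155 ± 20.1 normalized counts, a log2 fold change of 1.79 (SE 0.020). The fold change of Cyp4a12b was 2.38 (SE 0.018), from 3445 ± 21.8 against 661 ± 11.2 normalized counts. The sign for Cyp4a12a depended on the scaling, since with hepatocyte markers set equal its log2 fold change was -0.098 and that of Cyp4a12b 0.50. The value of Cyp4a12a lies within the range of the markers themselves, -0.28 to 0.38, so it shows no clear direction. Per 1000 counts of the mean hepatocyte marker, Cyp4a12a had 57.2 and 55.6 counts in the fasted libraries against 60.6 and 60.2 counts in those labelled non-fasted, while Cyp4a10 had 145 and 149 against 10.3 and 9.68.

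**Figure D2:**
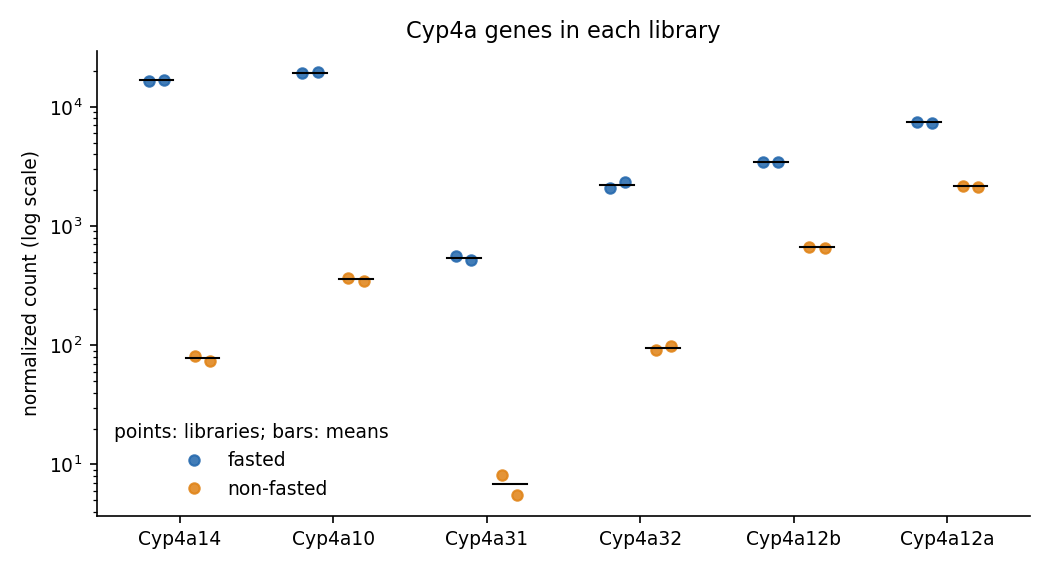
Normalized counts (median-of-ratios scaling, log axis) of each member in the 2 fasted and 2 non-fasted libraries, with points for libraries and bars for group means. The distance between the groups is widest for Cyp4a14, at 16707 against 77.5, and narrowest for Cyp4a12a, at 7436 against 2155.

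All 6 members passed edgeR's test at an adjusted p of 0.05 as higher in the fasted libraries, where 37.2% of the 15470 tested genes did so and 45.0% were lower. With hepatocyte markers set equal, 5 members were higher and 1, Cyp4a12a, lower, against 3.65% and 91.8% of all genes. Nothing is read from these counts, because the family was selected with this comparison known. The median log2 fold change of the members was 5.16 after median-of-ratios scaling and 3.27 with hepatocyte markers set equal. By their fitted fold, Cyp4a14, Cyp4a31, Cyp4a10 and Cyp4a32 ranked 1, 4, 7 and 16 among the tested genes, and Cyp4a12b and Cyp4a12a ranked 286 and 995. No source says that the libraries of a group came from separate mice, and they differed by little more than counting error, so standard errors and p-values measure the spread between these libraries alone, which may be technical.

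**Figure D3:**
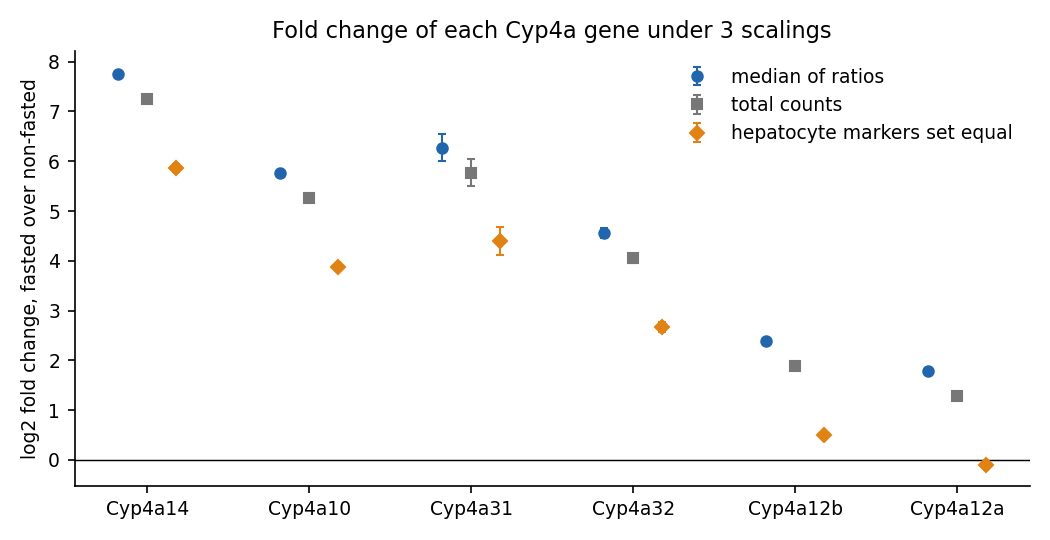
Log2 fold change of each member between fasted and non-fasted libraries, with the standard error from 2 libraries a group, under median-of-ratios scaling, total counts and hepatocyte markers set equal. The error bars are those of median-of-ratios scaling throughout. The order of the members is the same under all 3 by construction, since a scaling shifts all fold changes by about the same amount. Only Cyp4a12a crosses 0, from 1.79 to -0.098, a value within the range of the hepatocyte markers themselves.

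The make-up of the family within a library does not depend on scaling between libraries. Expressed per length of transcript, the leading member changed from Cyp4a12a in the non-fasted to Cyp4a10 in the fasted libraries. Cyp4a10 made up 41.6 ± 0.209% of the family in the fasted and 11.8 ± 0.387% in the non-fasted libraries, and Cyp4a14 30.4 ± 0.024% and 2.17 ± 0.119%. These SDs leave out the choice of length, since per 50-base window unique to a gene Cyp4a14 made up 21.1% and 1.16%. Cyp4a12a went the other way, with 13.9 ± 0.461% in the fasted and 62.2 ± 0.298% in the non-fasted libraries. Together Cyp4a12a and Cyp4a12b made up 20.5 ± 0.521% of the family in the fasted and 81.5 ± 0.245% in the non-fasted libraries (SD, n = 2).

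Levels per kilobase of transcript come from the same counts and lengths as the shares, so their order within a library is the same by construction. In the fasted libraries the normalized counts per kilobase ran from 9174 ± 189 for Cyp4a10 through 6694 ± 98.8 for Cyp4a14, 3070 ± 53.8 for Cyp4a12a, 1449 ± 109 for Cyp4a32 and 1439 ± 9.09 for Cyp4a12b to 215 ± 9.41 for Cyp4a31. Cyp4a32 and Cyp4a12b did not differ beyond their spread, and the annotated Cyp4a32 transcript holds coding sequence only, which raises its level per length beside the others. In the non-fasted libraries the order was Cyp4a12a at 890 ± 8.30, Cyp4a12b at 276 ± 4.66, Cyp4a10 at 169 ± 7.92, Cyp4a32 at 61.6 ± 3.55, Cyp4a14 at 31.0 ± 2.14 and Cyp4a31 at 2.73 ± 0.715, with no neighbours within each other's spread. As raw counts the 6 members summed to 25051 and 25444 in the fasted libraries against 6664 and 6521 in those labelled non-fasted, that is 0.185% and 0.188% of all counts against 0.0180% and 0.0177%.

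**Figure D4:**
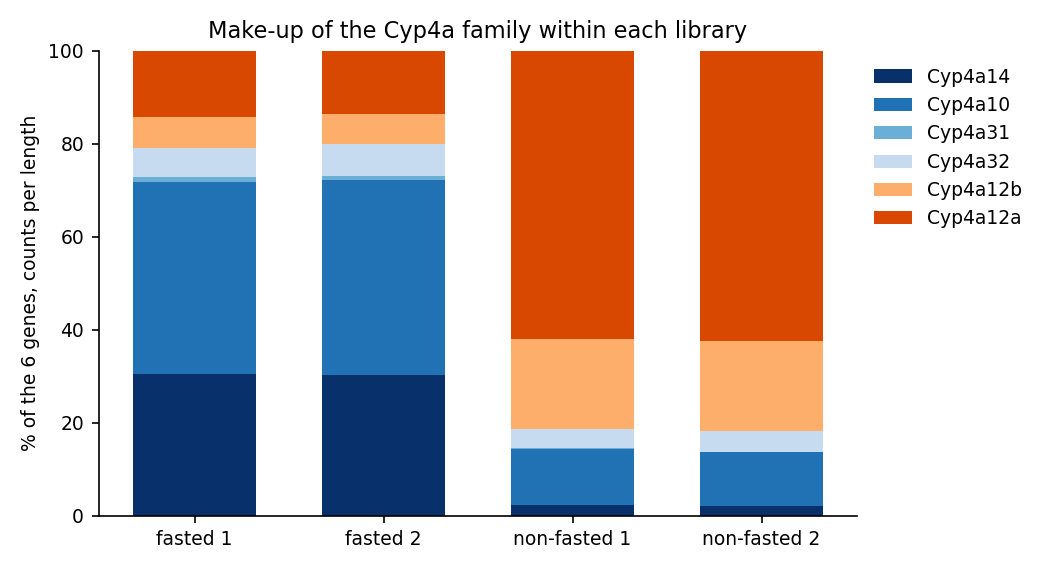
Share of each member in the counts of the 6 members per transcript length (vertical axis, %), in each library. Cyp4a12a and Cyp4a12b together fill 81.5% of the bars of the non-fasted libraries on average and 20.5% of those of the fasted libraries.

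Ratios of counts within a library compare paralogs directly. Cyp4a10 had 1.15 and 1.16 counts for each count of Cyp4a14 in the fasted libraries and 4.53 and 4.67 in the non-fasted libraries, a log2 difference of -1.99 (SE 0.023), so of the classical pair Cyp4a14 differed more between the groups. Against its copy Cyp4a32, Cyp4a10 had ratios of 9.09 and 8.41 in the fasted libraries against 4.07 and 3.51 in those labelled non-fasted, a log2 difference of 1.21 (SE 0.121). Against Cyp4a31 the ratios were 34.3 and 37.6 and then 45.3 and 61.5, a log2 difference of -0.56 (SE 0.231) that rests on the 16 and 11 non-fasted counts of Cyp4a31.

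Within the other copy pair, Cyp4a12a had 2.19 and 2.12 counts for each count of Cyp4a12b in the fasted libraries against 3.24 and 3.28 in those labelled non-fasted, a log2 difference of -0.60 (SE 0.026). The ratio of Cyp4a10 to Cyp4a12a moved furthest among those named here, from 0.170 and 0.161 in the non-fasted to 2.53 and 2.67 in the fasted libraries. Summing the close copies takes the uncertain split out of the values. Cyp4a10, Cyp4a31 and Cyp4a32 together had 11057 and 11404 counts against 918 and 881, a log2 fold change of 5.60, or 3.71 with hepatocyte markers set equal. Cyp4a12a and Cyp4a12b together had 5578 and 5479 counts against 5586 and 5495, a log2 fold change of 1.95, or 0.065 with hepatocyte markers set equal.

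The rest of the Cyp4 family, listed by name and not by value, went in both directions. Of 14 other Cyp4 genes, Cyp4a29, Cyp4a30b, Cyp4f37 and Cyp4f40 had no count in any library and Cyp4x1 had 2 counts in 1 library. Of the 9 tested, 7 were higher and 2 lower in the fasted libraries, at a median log2 value of 1.38. With hepatocyte markers set equal 2 were higher and 6 lower, at a median of -0.51. Shares over all tested genes, for this and later lists, were 37.2% higher and 45.0% lower, or 3.65% and 91.8% after hepatocyte scaling. Cyp4v3, a hydroxylase of medium-chain fatty acids and the most abundant of them, was at 16777 ± 164 against 4902 ± 20.8 normalized counts, a log2 fold change of 1.78 (edgeR adjusted p = 1.48e-11) that was -0.11 with hepatocyte markers set equal. Cyp4f15, of the subfamily that inactivates leukotriene B4, had 2.32 and 0.43 (edgeR adjusted p = 7.59e-11 and 2.76e-08), and Cyp4f39 had 3.53 on only 10 and 9 counts against 3 and 3. Cyp4b1 had 2.07 and 0.19, the latter with an edgeR adjusted p of 0.0603. The 2 lower genes, named after their values were seen, were Cyp4f16 at -1.57 and Cyp4f18 at -1.45. Cyp4f18 had 7 and 5 counts in the fasted libraries, and without fasted library 1 or without fasted library 2 only 1 gene, Cyp4f16, was lower.

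P450 enzymes need electrons and heme, and the genes that supply them went in both directions. Of 6 such partners, 5 were higher and 1 lower, or 1 higher and 4 lower with hepatocyte markers set equal. Alas1, the rate-limiting enzyme of heme synthesis, had a log2 fold change of 2.82, or 0.94 with hepatocyte markers set equal (edgeR adjusted p = 2.59e-12 and 3.72e-14), and was the only one higher under both. Cytochrome b5 (Cyb5a) had 1.87 and -0.011, the heme-binding Pgrmc1 1.77 and -0.11, mitochondrial cytochrome b5 (Cyb5b) 0.90 and -0.99, and the reductase Por, which passes electrons to all microsomal P450 enzymes, 0.52 and -1.37. Cyb5r3, which reduces cytochrome b5, was lower under both, at -0.38 and -2.27.

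The enzymes that take up the products of Cyp4a were higher as a group after median-of-ratios scaling and divided after hepatocyte scaling. All 21 genes of the dicarboxylic acid route were higher (median log2 fold change 2.06), whereas with hepatocyte markers set equal 11 were higher and 8 lower, with a median of 0.18. Over all tested genes the median was -0.13 and -2.01 under these scalings. Of those genes 37.2% were higher and 45.0% lower, or 3.65% and 91.8% with hepatocyte markers set equal. The 14 hepatocyte markers were also all higher after median-of-ratios scaling, at a median of 1.80, close to that of the route. With hepatocyte markers set equal, 5 of them were higher and 8 lower. Log2 values within their range, -0.28 to 0.38, give no clear direction under that scaling. The thioesterases Acot3 and Acot4, which release shortened acyl groups in peroxisomes, had log2 fold changes of 3.62 and 3.29, or 1.74 and 1.40 with hepatocyte markers set equal. Ehhadh, the peroxisomal bifunctional enzyme of dicarboxylic acid breakdown, had 3.28 and 1.40 (edgeR adjusted p = 2.30e-12 and 3.36e-16), and Crot, which exports medium-chain products as carnitine esters, had 3.08 and 1.19. Acot3 and Acot4 are themselves close copies within a gene cluster that also holds Acot1 and Acot2, so their counts share the uncertainty of the Cyp4a copies. The 5 alcohol and aldehyde dehydrogenases that complete the omega-oxidation step, described after their values were seen, ran from 1.53 for Aldh9a1 to 2.19 for Aldh3a2, or from -0.35 to 0.30 with hepatocyte markers set equal. Scp2, the peroxisomal thiolase and lipid transfer gene with the highest count of the list, had 1.80 and -0.082.

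Among 10 regulators of PPARα action, Ppara itself had 10042 ± 116 normalized counts in the fasted and 1378 ± 36.3 in the non-fasted libraries. Its log2 fold change was 2.87 (edgeR adjusted p = 4.07e-12), or 0.98 with hepatocyte markers set equal (edgeR adjusted p = 4.92e-14). Creb3l3, a liver transcription factor that acts with PPARα, had 2.60 and 0.71, and these 2 genes were the ones higher under both scalings. In all, 7 regulators were higher and 2 lower, against 2 higher and 7 lower with hepatocyte markers set equal, and 5 higher and 3 lower scaled to total counts. The coactivator Ppargc1a had 2.18 and 0.30, the partner receptors Rxra and Rxrb 1.66 and -0.23 and 0.42 and -1.46, the corepressor Ncor1 0.82 and -1.07, the coactivator Lpin1 0.37 and -1.52 (not past the test without fasted library 1), and the Mediator subunit Med1 0.018 (edgeR adjusted p = 0.764) and -1.87. Ppargc1a did not pass with hepatocyte markers set equal (edgeR adjusted p = 0.120). The related receptors Ppard and Pparg were lower under both, at -1.96 and -3.84 and at -1.39 and -3.28. How much of the Ppard and Pparg counts in the non-fasted libraries came with the trophoblast RNA was not tested.

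Of 20 other PPARα target genes, listed with earlier results of these data known, 17 were higher and 3 lower (median log2 fold change 2.45). Setting hepatocyte markers equal left 16 higher and 3 lower (median 0.56). Of the 16, Hadha at 0.064, Acadm at 0.17, Plin2 at 0.34 and Cpt2 at 0.35 lay within the range of the markers, -0.28 to 0.38. These genes, named after their values were seen, show no clear direction. Of all tested genes 37.2% were higher and 45.0% lower, or 3.65% and 91.8% with hepatocyte markers set equal. All 14 hepatocyte markers were higher too after median-of-ratios scaling, at a median of 1.80. With hepatocyte markers set equal, 5 of them were higher and 8 lower. The hormone Fgf21 had 5.14 and 3.27 on 86 and 91 counts against 11 and 8, and Angptl4, an inhibitor of lipoprotein lipase, had 3.96 and 2.07 (edgeR adjusted p = 1.23e-12 and 1.05e-16). The thioesterase Acot1 had 3.68 and 1.80, and the lipid droplet gene Cidec 3.34 and 1.46. Fabp1, the liver fatty acid binding protein and the most abundant of the list, had 2.35 and 0.46. The 3 lower genes, named after their values were seen, were Pdk4, a kinase that restrains pyruvate oxidation, at -0.82 and -2.71, the carnitine carrier Slc22a5 at -0.55 and -2.43, and the thioesterase Acot2 at -0.35 and -2.24. The call for Acot2 (edgeR adjusted p = 0.0406) was lost without the filter on low counts, with DESeq2, and on omission of either fasted library or of non-fasted library 2. On either scaling Cyp4a14 and Cyp4a10, at 7.75 and 5.76 or 5.87 and 3.88, lay above the highest of these 20 genes, Fgf21. Nothing is read from this order, because the family was selected with this comparison known. The value of Fgf21 also rests on its 11 and 8 non-fasted counts.

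**Figure D5:**
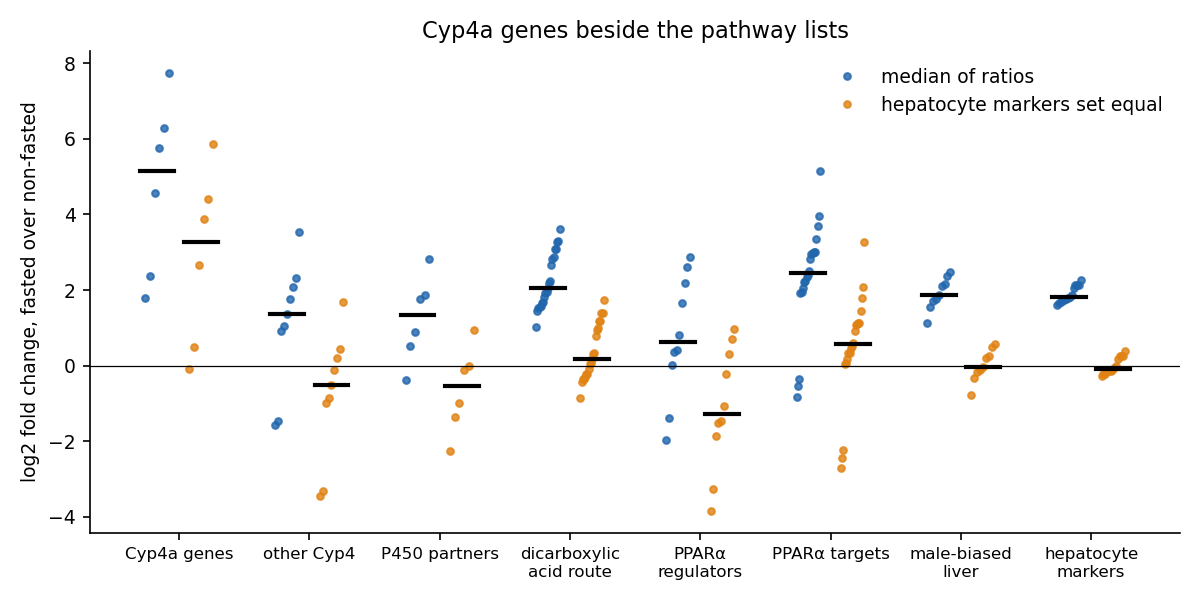
Log2 ratio of fasted to non-fasted libraries for the tested genes of each list (points) with the list median (bars), under median-of-ratios scaling and with hepatocyte markers set equal. The members have medians of 5.16 and 3.27, the PPARα targets 2.45 and 0.56 and the dicarboxylic acid route 2.06 and 0.18.

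Because Cyp4a12a is a male-predominant gene, other sex-biased liver genes are given beside it. All 9 male-biased genes were higher after median-of-ratios scaling, at a median of 1.86. With hepatocyte markers set equal 4 were higher and 5 lower, at a median of -0.029. Of them, Cyp2d9, Cyp7b1, Mup20, C6 and Hsd3b5, named after their values were seen, ran from -0.17 to 0.26. These values lie within the range of the markers, -0.28 to 0.38, and show no clear direction. Of all tested genes 37.2% were higher and 45.0% lower, or 3.65% and 91.8% with hepatocyte markers set equal. The 14 hepatocyte markers were also all higher after median-of-ratios scaling, at a median of 1.80, close to that of the male-biased genes. With hepatocyte markers set equal, 5 of the markers were higher and 8 lower. Elovl3, a fatty acid elongase, had 2.46 and 0.58, and the glucuronosyltransferase Ugt2b38 2.38 and 0.49. Cyp2d9, a steroid hydroxylase and the most abundant of the male-biased genes, had 2.15 and 0.26. Of 13 female-biased genes only Cux2 and Cyp17a1 had counts enough to test, and both were lower. Cyp17a1 had 26 and 26 counts against 2785 and 2669, and Cux2 only 0 and 2 against 43 and 41. The other 11 had 0 to 8 counts per library. Cyp17a1 is also known from placenta, and how much of its count or that of Cux2 came with the trophoblast RNA was not tested. In the growth hormone pathway, which sets the sex pattern of the liver, 8 of 10 genes were higher and 2, Jak2 and Bcl6, lower, against 4 higher and 4 lower with hepatocyte markers set equal, and Igf1 was the most abundant, with 2.42 and 0.54. Among other cells of the liver, all 5 Kupffer cell markers were higher, Marco the most at 2.64 and 0.76, and 4 of them also with hepatocyte markers set equal. Of these 4, Clec4f was at 0.10, within the range of the hepatocyte markers, and shows no clear direction. Of 5 endothelial markers Stab2 was higher, at 1.53, and Kdr, Lyve1, Pecam1 and Cdh5 were lower, at -0.45 to -3.54, and all 5 were lower with hepatocyte markers set equal. The split of this list by cell type was made after its values were seen. In addition, all 5 cholangiocyte markers were lower under both scalings, summing to 575 and 495 counts against 15137 and 15036. How much of the endothelial and cholangiocyte marker counts came with the trophoblast RNA was not tested either, so they are not read as numbers of liver cells.

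Genes outside the family with the most similar pattern were sought by Euclidean distance of log2 normalized counts, centred over the 4 libraries, among 8823 genes of at least 10 CPM on average. With 2 groups of 2 libraries this distance mostly ranks genes by their difference between groups. For Cyp4a10 the nearest were Mug-ps1 at a distance of 0.945, Cyp2j9 at 0.963 and Cyp2d13 at 1.29. The same 3 genes were the nearest to Cyp4a31, at 1.28 for Cyp2j9, 1.34 for Mug-ps1 and 1.69 for Cyp2d13, and to Cyp4a14 only at 2.91, 2.92 and 3.26. Genes below 10 CPM, some with larger fold changes than these 3, were not candidates. Cyp4a32 was nearest to Cyp2d13 at 0.164, to the histidine decarboxylase gene Hdc at 0.202 and to Pck1, the rate-limiting enzyme of gluconeogenesis, at 0.233. Cyp4a12a was nearest to Ttc36, Scp2 and Ppp1r3c at 0.020, 0.022 and 0.027, and Cyp4a12b to Entpd8, Vsig4 and Sdr9c7 at 0.016, 0.024 and 0.029.

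The promoter window of Cyp4a32 is the one analysed here among the members, and it was not picked for its fold change. It spans 250 bases before to 50 bases after the start of the gene, chr4:115600688-115600987 on the plus strand of GRCm38.p6, from RefSeq, and capitals mark the 1 match to TATAAA, which lies on the opposite strand.
Cyp4a32 promoter: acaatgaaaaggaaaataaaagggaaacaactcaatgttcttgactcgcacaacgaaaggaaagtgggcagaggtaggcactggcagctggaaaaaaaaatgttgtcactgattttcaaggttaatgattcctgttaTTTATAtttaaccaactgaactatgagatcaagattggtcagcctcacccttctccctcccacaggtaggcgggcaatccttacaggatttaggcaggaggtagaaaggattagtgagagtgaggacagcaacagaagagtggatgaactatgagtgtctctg
On both strands, TATAAA was present in 13.6% of 32851 promoter windows of this length. AGGTCA, the core letters that nuclear receptors such as PPARα bind, occurred in 16.3% of the windows, a pair of AGGNCA 1 base apart in 0.381% and the STAT motif TTCNNNGAA in 8.30%, and none of these 3 is in the Cyp4a32 window. A pair of AGGNCA holds AGGTCA where N is T, so these motifs overlap. The promoters of Cyp4a10, Cyp4a14, Cyp4a31, Cyp4a12a and Cyp4a12b were not analysed here.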

How the data were processed

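Liver RNA was sequenced in 4 libraries, 2 per group. The deposited files hold raw counts per gene and library. Per the submitters' notes the tools were FastQC, MultiQC, Trimmomatic, STAR, featureCounts and DESeq2 1.32.0 with the build GRCm39, listed without roles. How strand and reads with several matching places were treated is not given in the sources used here. Depth is the total count of each library, and counting intervals are at 95% and cover counting error only.

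Low counts were removed by filterByExpr (default settings) and median-of-ratios factors were taken over the genes kept, which were then tested in edgeR 4.0.16 (quasi-likelihood, two-sided, Benjamini-Hochberg over 15470 genes, threshold 0.05) in R 4.3.3 with limma 3.58.1. Standard errors of the members come from the log2 values of the 2 libraries a group. A normalized count is the raw count over the size factor of its library. Names, gene order and promoters came from RefSeq GRCm38.p6 and transcripts from GENCODE M21 (GRCm38), 1 transcript per gene. These are an earlier build than that of the files and served for names and sequences only. 1904 identifiers had no name. Coding sequences were aligned with MAFFT 7.526, and Python 3.11.15 with matplotlib 3.10.9 drew the figures.

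The members and the gene lists were chosen with earlier results of these data known. Named genes are the 6 members, in each list the 4 genes with the largest absolute fold change and the one with the highest mean count, all regulators and P450 partners, and the 3 genes nearest in pattern to each member, and examples are given for some lists. Alternatives were TMM, total counts, the 14 hepatocyte markers set equal, no filter, DESeq2 1.42.0, omission of each library, the replicate number as a block, and other lengths for the shares. Lengths from windows unique to a gene and sums of close copies were added after seeing the data.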

Additional observations from a re-analysis of the deposited data

How the results depend on the processing

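Scaling moved the values most. With total counts, 3550 genes were higher, and the log2 fold changes of Cyp4a10, Cyp4a14, Cyp4a31, Cyp4a32, Cyp4a12a and Cyp4a12b were 5.26, 7.25, 5.77, 4.05, 1.28 and 1.88. With hepatocyte markers set equal, 564 genes were higher and 14207 lower, and the 6 fold changes were 3.88, 5.87, 4.40, 2.67, -0.098 and 0.50. The sign of Cyp4a12a was reversed, at a value within the range of the markers themselves. Under that scaling 2 other Cyp4 genes were higher and 6 lower, 11 dicarboxylic route genes higher and 8 lower, and 2 regulators higher and 7 lower. The split follows from the construction, which lowers all fold changes together.

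Leaving out 1 library gave 5192 to 5311 genes higher and 6066 to 6288 lower, 1 to 2 other Cyp4 genes lower, and log2 fold changes of 5.71 to 5.82 for Cyp4a10, 7.67 to 7.81 for Cyp4a14, 6.02 to 6.55 for Cyp4a31, 4.48 to 4.66 for Cyp4a32, 1.77 to 1.84 for Cyp4a12a and 2.36 to 2.42 for Cyp4a12b. Where this left a group with 1 library, that library was assumed to vary like the other group. Summing close copies gave 5.60 for Cyp4a10, Cyp4a31 and Cyp4a32 and 1.95 for Cyp4a12a and Cyp4a12b.

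Family shares depend on the length used. From raw counts, Cyp4a10 made up 38.9% of the fasted and 10.6% of the non-fasted libraries, Cyp4a14 33.6% and 2.31%, and Cyp4a12a with Cyp4a12b 21.9% and 84.0%. Per coding length these were 38.9% and 10.6%, 33.7% and 2.32%, and 21.9% and 84.1%. Per window unique to a gene, with windows of 50 bases, Cyp4a10 in the non-fasted libraries was at 9.08%, Cyp4a14 at 21.1% and 1.16%, and Cyp4a12a with Cyp4a12b at 27.8% and 85.3%. With windows of 100 bases, Cyp4a10 was at 40.1% and 9.15%, Cyp4a14 at 25.3% and 1.46%, and Cyp4a12a with Cyp4a12b at 26.7% and 85.5%.

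A replicate block left 5743 genes higher and 6929 lower, and same-numbered libraries did not deviate together (correlation -0.00738 over 15470 genes). TMM, no filter on low counts and DESeq2 kept the direction of all 6 members. Depth limits Cyp4a31 most, with 16 and 11 counts in the non-fasted libraries.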
